A study of Mus musculus with 622 samples.

Results

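Insulin cells that carried a large share of mitochondrial transcripts were set against insulin cells with an ordinary share. They come from a set of 622 pancreatic islet cells of wild-type C57BL/6 mice, each sequenced on its own. Cells were caught singly in a Fluidigm C1 circuit, where lysis and cDNA synthesis take place before library preparation. The authors deposited RPKM, the reads of a gene per kilobase of its length, relative to all mapped reads of that cell. A cell counted as an insulin cell when at least 1000 genes reached 1 RPKM and when Ins1 plus Ins2 made up at least 99% of the summed RPKM of the 5 islet hormone genes Ins1, Ins2, Gcg, Sst and Ppy. Of 593 cells with 1000 genes, 360 met this rule. The mitochondrial share, M, is the percentage of a cell's RPKM held by the 13 protein genes of the mitochondrial genome. Cells with M of at least 20% were called mitochondria-rich (48 cells) and cells with M of at most 12% ordinary (232 cells), 280 of the 622 cells in all. The other 80 insulin cells lay between these limits and are shown beside the others.

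All cells share their labels: wild type, C57BL/6, pancreatic islets, with no treatment. The labels name no animal, age, chip or culture. All cells therefore counted as 1 sample, and the values below are levels, ratios and their spread over cells, with no p-value. A nuclear gene was called higher or lower when its means differed at least 2-fold. By number format, 359 cells have columns written in full precision and 263 have columns cut to 4 decimals, here called rounded. No label refers to this difference, so each comparison was repeated within both sets. The full-precision columns held 30 mitochondria-rich, 44 between and 130 ordinary cells, and the rounded columns 18, 36 and 102.

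Mitochondrial DNA encodes 13 subunits of the respiratory chain and of ATP synthase, together with the ribosomal and transfer RNAs that translate them. All other subunits, the factors that copy and translate mitochondrial DNA, and the enzymes of the citric acid cycle are encoded in the nucleus and imported. In beta cells the chain couples glucose breakdown to insulin release, because the ATP it makes closes potassium channels of the plasma membrane. In single-cell RNA profiles the mitochondrial share is also a common filter on cell quality.

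The cells were chosen by M, so its values are a description. It ran over 20.2% to 77.5% with a median of 26.6% in mitochondria-rich cells, and over 0.0958% to 11.8% with a median of 7.62% in ordinary cells. The cells just inside the upper limit had M of 20.2%, 20.5% and 20.6%, and the cells just outside it had 19.5%, 19.5% and 19.6%. At the lower limit, the last 3 ordinary cells had 11.8% each and the nearest cells outside it had 12.1%. Mitochondria-rich cells were not evenly spread. In 37 of them M stayed below 40%, with a median of 24.5%, while 11 lay at 45.0% or more, 7 of these in the rounded columns.

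Hormone levels chose the cells on both sides and are given as a description, with markers of cell types beside them. Ins2, the main insulin gene of the mouse, had a median of 406680 nuclear-scaled RPKM in mitochondria-rich cells (36113 to 714141) and 486051 in ordinary cells (120891 to 797025). Nuclear-scaled RPKM, used for all nuclear genes below, rescales the nuclear genes of each cell to sum to 1000000, because M is itself part of the RPKM total. Ins1 had medians of 44056 in mitochondria-rich and 56949 in ordinary cells. Of the other hormones, Gcg had medians of 72.0 in mitochondria-rich and 69.1 in ordinary cells, Sst 125 in mitochondria-rich and 55.0 in ordinary cells, and Ppy 38.1 in mitochondria-rich and 15.4 in ordinary cells. The insulin genes took a median of 45.7% of nuclear RPKM in mitochondria-rich cells (3.65% to 75.7%) and 54.3% in ordinary cells (13.0% to 84.3%). All 14 beta cell markers examined, among them Nkx6-1, Pdx1, Slc2a2 and Iapp, reached 1 RPKM in at least 25% of the cells of each side, and the median cell held 12 of them on each side. Acinar, endothelial, glial and stellate or fibroblast marker sums had a median of 0 on both sides, and immune marker sums a median of 2.29 in mitochondria-rich and 6.60 in ordinary cells. The alpha marker sum had a median of 409 in mitochondria-rich and 785 in ordinary cells, the delta sum 39.1 in mitochondria-rich and 21.3 in ordinary cells, and the ductal sum 242 in mitochondria-rich and 222 in ordinary cells. Single cells stood out. The immune sum reached 176 in mitochondria-rich cells and 109288 in ordinary cells, and 3 mitochondria-rich and 14 ordinary cells held at least 3 markers of another type at 10 RPKM or more.

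All 13 mitochondrial protein genes were higher together in mitochondria-rich cells, as the rule demands, and the means of the split among them differed by less than the spread over cells. mt-Co3, a core subunit of cytochrome c oxidase and the highest of the 13, had a median of 53538 RPKM in mitochondria-rich cells (26508 to 219311), 29393 in the cells between, and 14347 in ordinary cells (208 to 40372). The ratio of mean RPKM, mitochondria-rich over ordinary, lay between 3.92 for mt-Nd5, a complex I subunit, and 5.98 for mt-Nd2, another one. As a part of the summed 13 genes, mt-Co3 took 24.2% ± 2.95 in mitochondria-rich cells and 24.7% ± 4.31 in ordinary cells (SD over 48 and 232 cells). mt-Cytb, the only mitochondrially encoded subunit of complex III, took 10.7% ± 2.30 in mitochondria-rich and 11.7% ± 3.28 in ordinary cells. mt-Atp6, a subunit of ATP synthase, took 7.57% ± 1.59 in mitochondria-rich and 7.66% ± 1.91 in ordinary cells. Among the others, mt-Co2 took 14.0% in both, and mt-Atp8 9.16% in mitochondria-rich and 8.59% in ordinary cells. Of the complex I subunits, mt-Nd1, mt-Nd2 and mt-Nd4 took a larger mean part in mitochondria-rich cells in all cells and in both column sets, with 9.21% in mitochondria-rich and 8.64% in ordinary cells for mt-Nd1. mt-Nd5 took a smaller one, 2.31% in mitochondria-rich and 2.63% in ordinary cells. For mt-Nd3, mt-Nd4l and mt-Nd6 the direction was not the same in all cells and in both sets. The column sets did differ. mt-Co1, another core oxidase subunit, took 11.0% ± 3.45 in mitochondria-rich and 11.4% ± 3.62 in ordinary cells at full precision (SD, 30 and 130 cells), but 4.67% ± 4.63 in mitochondria-rich and 5.87% ± 4.72 in ordinary cells of the rounded columns (18 and 102 cells).

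**Figure D1:**
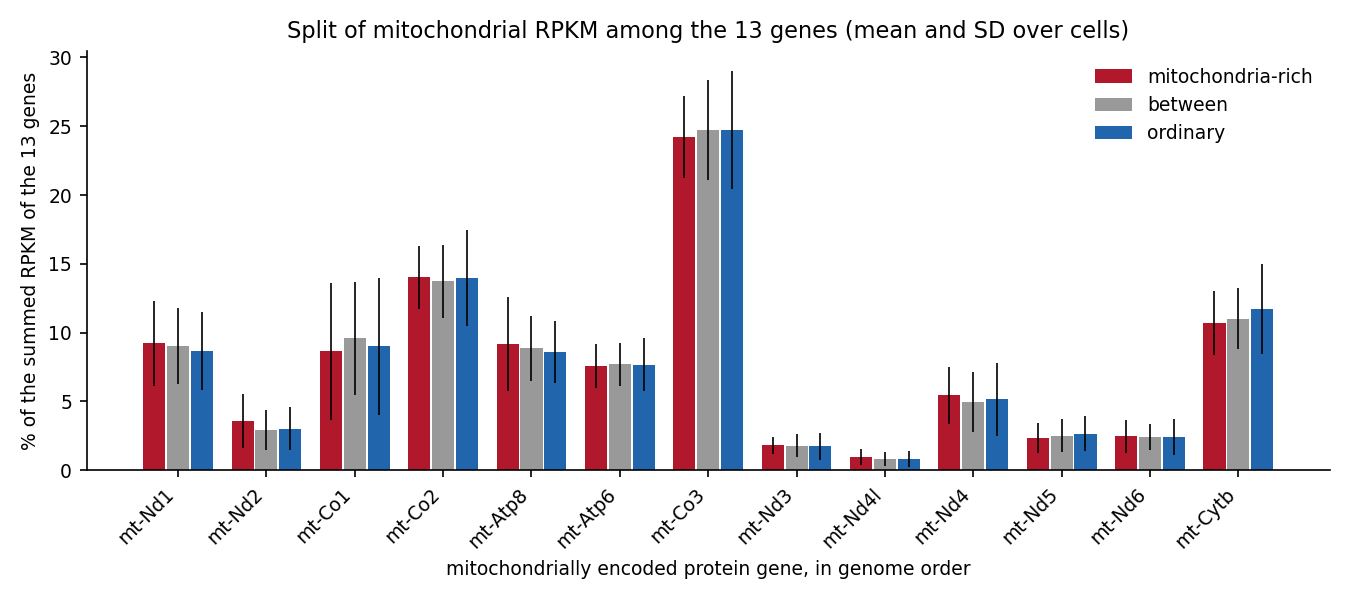
The split of mitochondrial RPKM among the 13 protein genes, in genome order. Bars give the mean percentage of the summed 13 genes over 48 mitochondria-rich, 80 between and 232 ordinary cells, and lines the SD over cells; mt-Co3 holds 24.2% and 24.7% of it in mitochondria-rich and ordinary cells.

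The mitochondrial ribosomal RNAs did not enter the rule. mt-Rnr2, the large one, had a median of 18299 RPKM in mitochondria-rich cells (797 to 71048) and 5555 in ordinary cells (645 to 18592). Its mean was 3.63-fold higher in mitochondria-rich cells, and that of mt-Rnr1, the small one, 3.83-fold higher. In all cells both ratios lie below that of every protein gene, but at full precision mt-Rnr1, at 4.00, was above mt-Nd5, mt-Atp8 and mt-Atp6 and level with mt-Cytb. The sum of both rRNAs took a median of 2.64% of RPKM in mitochondria-rich cells and 0.841% in ordinary cells. In the rounded columns alone these medians were 1.33% in mitochondria-rich and 0.508% in ordinary cells.

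Among nuclear genes, the highest ratios belonged to a pair of pseudogenes on chromosome 1 whose sequence is mitochondrial. Gm10925 (GRCm38, chromosome 1, 24613971 to 24614651) had a median of 42257 nuclear-scaled RPKM in mitochondria-rich cells (8784 to 672141), 21298 in the cells between, and 8911 in ordinary cells (32.3 to 23799). Gm10222 (chromosome 1, 24612404 to 24612700) had a median of 2785 in mitochondria-rich cells (49.3 to 77472) and 472 in ordinary cells (3.36 to 2525). The log2 ratios of their means were 3.20 and 3.39. The GENCODE M21 transcript of Gm10925 is identical to mt-Atp6 over all its 678 bases, and that of Gm10222 to mt-Nd4l, a complex I subunit, over all its 294 bases. The stretches below, 120 bases of each, are printed to show that identity. Capitals mark in-frame ATA and TGA codons, which mitochondria read as methionine and tryptophan and cytosolic ribosomes as isoleucine and stop.
mt-Atp6: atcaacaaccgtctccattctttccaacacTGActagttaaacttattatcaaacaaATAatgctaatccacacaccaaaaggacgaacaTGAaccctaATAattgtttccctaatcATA
Gm10925: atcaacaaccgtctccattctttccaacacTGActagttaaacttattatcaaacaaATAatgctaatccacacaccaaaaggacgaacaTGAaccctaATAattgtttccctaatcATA
mt-Nd4l: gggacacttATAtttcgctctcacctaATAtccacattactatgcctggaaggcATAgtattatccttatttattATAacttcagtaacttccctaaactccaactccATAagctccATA
Gm10222: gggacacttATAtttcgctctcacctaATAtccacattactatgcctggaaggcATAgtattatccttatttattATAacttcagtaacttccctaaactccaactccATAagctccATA

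The mitochondrial stretches are the plus strand of MT:8038-8157 and MT:9928-10047, and the nuclear ones the minus strand of chr1:24614421-24614540 and chr1:24612530-24612649 (GRCm38, GENCODE M21 transcripts). Reads from the copies and from the mitochondrial genes cannot be told apart, so part or all of the values listed for Gm10925 and Gm10222 may be mitochondrial. In RPKM, Gm10925 stood at a median of 1.64 times mt-Atp6 in mitochondria-rich cells (0.351 to 2.33) and 1.68 times in ordinary cells (0.127 to 2.78). The medians were close on both sides, but with reads that cannot be told apart this ratio is no separate evidence about the copy. The Gm10925 ratio differed between the column sets, with medians of 1.30 in mitochondria-rich and 1.36 in ordinary cells at full precision, and of 2.12 in mitochondria-rich and 1.95 in ordinary cells among rounded ones. For Gm10222 over mt-Nd4l, full-precision medians were 0.593 in mitochondria-rich and 0.827 in ordinary cells. Among rounded columns they were 1.54 in mitochondria-rich and 1.13 in ordinary cells. Both copies together took a median of 4.51% of nuclear RPKM in mitochondria-rich cells (0.995% to 70.2%) and 0.930% in ordinary cells (0.00429% to 2.42%). Because they are part of the nuclear total, counts are given below with and without them.

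Mitochondria-rich cells showed fewer nuclear genes. At 1 RPKM they had a median of 4402 nuclear genes (1079 to 6508), the cells between 5058, and ordinary cells 5384 (1945 to 8207). Depth was similar in reads, with a median of 1138944 in mitochondria-rich cells (215815 to 3230171) and 1201648 in ordinary cells (135830 to 4351306). The median of nuclear reads was 789579 in mitochondria-rich and 1108177 in ordinary cells. With each cell thinned to 250000 reads, and 2 mitochondria-rich and 1 ordinary cell with fewer left out, the medians were 4551 in mitochondria-rich and 5468 in ordinary cells. With each cell thinned to 100000 nuclear reads other than insulin, which still include reads listed for the mitochondrial copies, they were 4344 in mitochondria-rich and 4891 in ordinary cells, with 1 cell of each left out.

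Within the column sets the gap in detected genes was there in both, but unequal. At 250000 reads, full-precision cells had a median of 5406 nuclear genes in mitochondria-rich (2121 to 6717) and 5924 in ordinary cells (3351 to 8471). In the rounded columns the medians were 2449 in mitochondria-rich (1399 to 4850) and 4226 in ordinary cells (2159 to 6475). The ranges overlap in both. Cells under 3000 genes made up 15 of the 48 mitochondria-rich cells, 12 of them in the rounded columns, and 10 of the 232 ordinary cells. The 11 cells with M above 40% had a median of 2080 nuclear genes at 250000 reads and the 37 mitochondria-rich cells below it 5214, with 1 cell of each left out as too shallow.

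**Figure D2:**
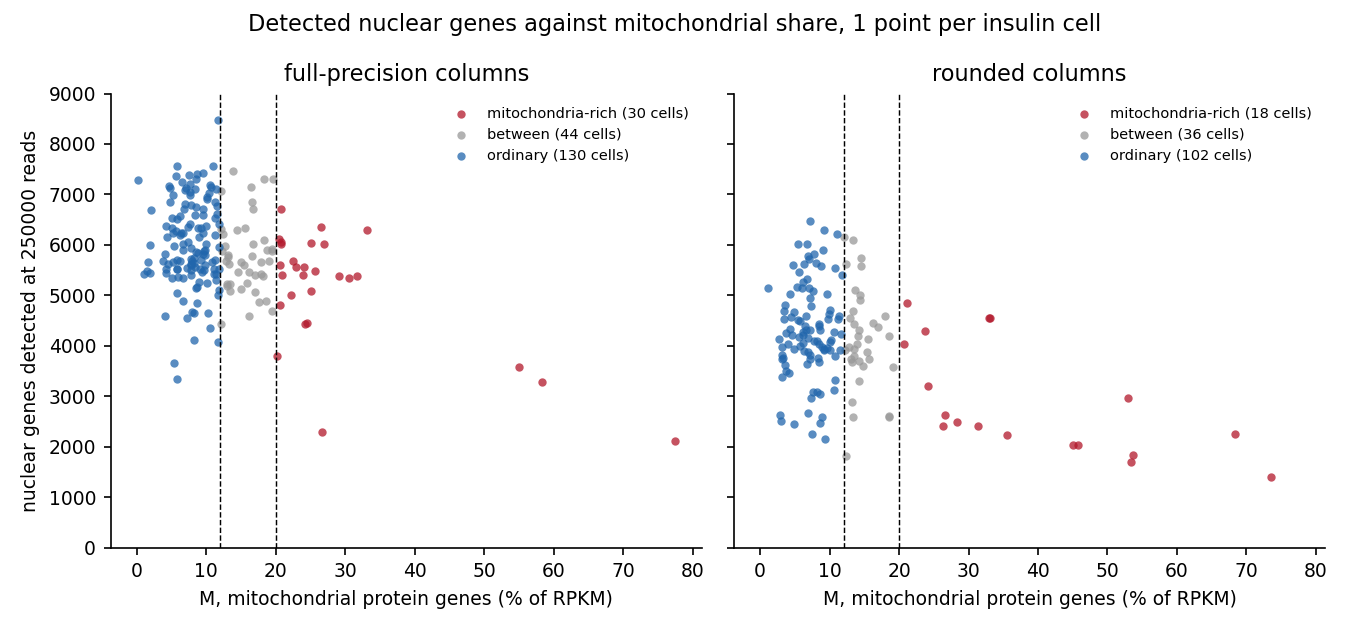
Nuclear genes detected after thinning to 250000 reads against M, the mitochondrial share of RPKM, with 1 point per insulin cell; the left panel holds full-precision and the right panel rounded columns, and dashed lines stand at 20% and 12%. Cells with M above 40% all lie at or below 3582 genes, and mitochondria-rich cells of the rounded columns have a median of 2449.

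Across all cells, 7012 nuclear genes were compared, those with a mean of at least 5 nuclear-scaled RPKM on a side and 1 RPKM in at least 25% of its cells. In mitochondria-rich cells 535 (7.63%) were at least 2-fold higher and 543 (7.74%) at least 2-fold lower, 15.4% either way, and the median log2 ratio over all genes was 0.05. The split depends on the scale. With the mitochondrial copies left out, 735 of 7066 genes were higher (10.4%) and 475 lower (6.72%), 17.1% either way. With insulin left out of the total 361 were higher and 1099 lower, and on RPKM as deposited 168 were higher and 1093 lower. The median over all genes moved to 0.14, to −0.22 and to −0.38 in these scalings, so ratios below are read against 0.05.

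The column sets did not give the same picture. At full precision 745 of 7898 genes (9.43%) were higher and 694 (8.79%) lower, 18.2% either way. Among rounded columns 707 of 5441 genes (13%) were higher and 2088 (38.4%) lower, 51.4% either way. The median log2 ratio of the 7012 genes was 0.12 at full precision and −0.64 in the rounded columns. Of the 535 genes higher in all cells, 365 were above 0 in both sets and 105 past 2-fold in both; of the 543 lower ones, 527 were below 0 in both and 313 past 2-fold in both. The sets are also parts of the pooled value, so these counts are no separate check of it.

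Means of mitochondria-rich cells rested on few cells throughout. For the median gene of the 535 higher ones, and likewise of the 543 lower ones, 2 of the 48 cells held at least 50% of the summed level, against 3 for the median of all genes compared. Of the 535 genes 192 also had a higher median, and of the 543 genes 274 a lower one. When the highest cell of each side was left out for every gene, 157 genes were higher and 1173 lower. Most genes were found in fewer mitochondria-rich cells: 6379 of 7012 (91.0%) reached 1 RPKM in a smaller percentage of mitochondria-rich than of ordinary cells, by a median of 11.5 percentage points. The lower counts of nuclear reads and detected genes move with this, and their part in it was not tested.

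**Figure D3:**
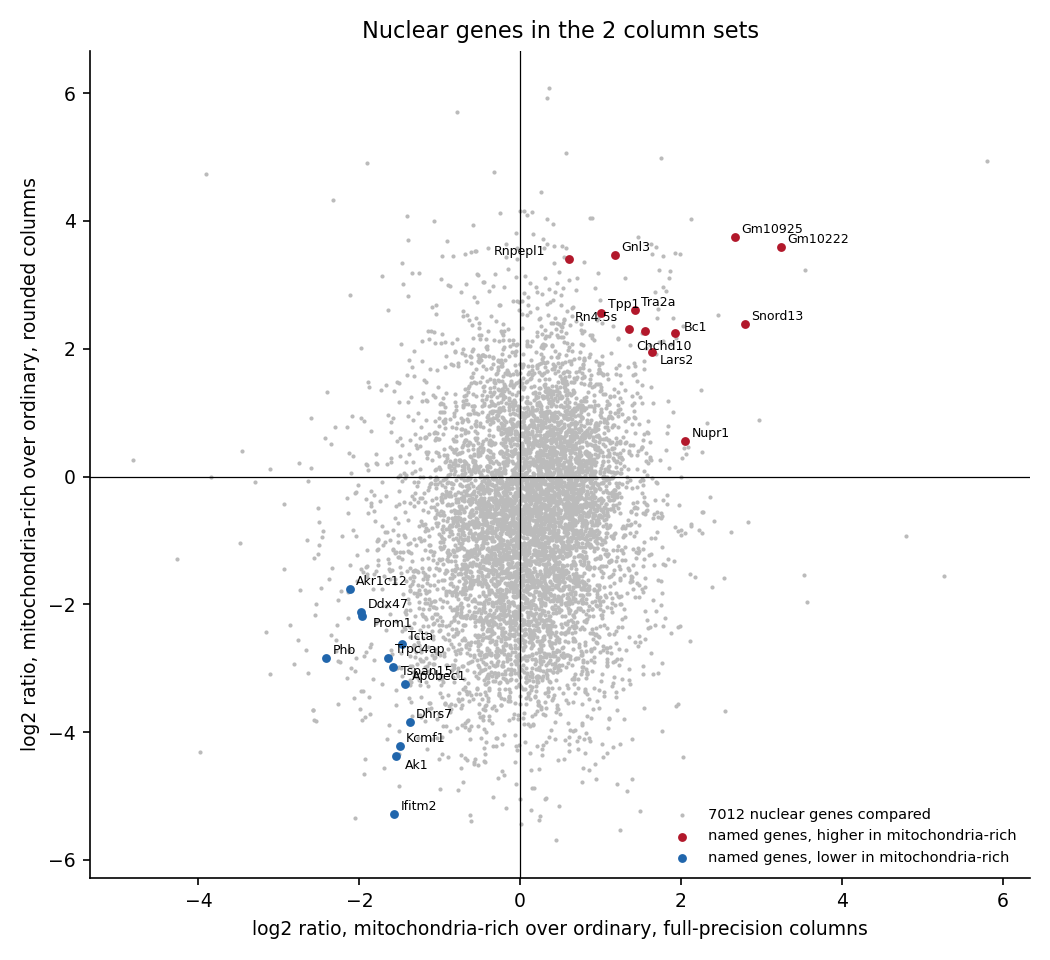
Log2 ratios of mean nuclear-scaled RPKM, mitochondria-rich over ordinary, in full-precision columns (horizontal axis) and rounded columns (vertical axis) for 7012 nuclear genes; coloured points are the named genes, which had to share a sign in both sets. The cloud sits at a median of 0.12 on the horizontal and −0.64 on the vertical axis.

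The genes named next had the 12 highest and the 12 lowest ratios among genes with a mean of at least 20 on the higher side, 1 RPKM in at least 50% of its cells and the same sign in both column sets, at 0.5 or more. After the copies came small and structural RNAs. Snord13, a small nucleolar RNA that guides modification of ribosomal RNA, had a median of 25.4 in mitochondria-rich cells (0 to 1314) and 9.16 in ordinary cells (0 to 171), with a log2 ratio of means of 2.66. Bc1, a small cytoplasmic RNA known from rodent neurons, had a median of 33.5 (0 to 5586) in mitochondria-rich and 12.4 (0 to 2030) in ordinary cells, with a ratio of 2.05. Rn4.5s, a short rodent RNA, had 48.6 (0 to 1216) in mitochondria-rich and 18.6 (0 to 578) in ordinary cells, with a ratio of 1.89. In all 3 the ordinary range lies within the mitochondria-rich one, and both the median and the mean are higher in mitochondria-rich cells. Rn4.5s shares its position with Gm40369, and without strand their reads cannot be separated.

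Lars2, the mitochondrial leucyl-tRNA synthetase, was the only one of the 12 apart from the copies that reached 1 RPKM in every cell of both sides. It had a median of 99.2 in mitochondria-rich cells (6.92 to 1751), 57.1 in ordinary cells (5.04 to 378) and a log2 ratio of 1.76. The ratio was 1.64 at full precision and 1.95 in the rounded columns, but 0.63 when cells with M above 40% were left out and 0.79 between medians. No transcript of Lars2 matched a mitochondrial transcript at 90% identity over 80 bases, though the gene overlaps Gm46137. Chchd10, a protein of the mitochondrial intermembrane space, had medians of 10.8 in mitochondria-rich and 3.41 in ordinary cells and a ratio of 1.86. Its range was 0 to 1309 in mitochondria-rich and 0 to 452 in ordinary cells. It too overlaps another gene, Gm867.

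For the other 5 higher genes the medians were low or close, and 2 or 3 mitochondria-rich cells held at least 50% of each sum. For Chchd10, too, 2 mitochondria-rich cells held at least 50% of the sum. Nupr1, a small chromatin protein induced by stress, averaged 1542 in mitochondria-rich and 440 in ordinary cells (log2 ratio 1.81), yet its medians were 9.73 in mitochondria-rich and 9.82 in ordinary cells. Tpp1, a lysosomal peptidase, had medians of 1.90 in mitochondria-rich and 1.33 in ordinary cells at a ratio of 1.8. Tra2a, a splicing factor, had 2.59 in mitochondria-rich and 1.35 in ordinary cells at 1.97. Gnl3, a nucleolar GTP-binding protein that overlaps Glt8d1, Snord19 and Snord69, had 12.8 in mitochondria-rich and 11.4 in ordinary cells at 2.16. Rnpepl1, an aminopeptidase-like protein that overlaps 5033417F24Rik, had 2.98 in mitochondria-rich and 0.765 in ordinary cells at 2.06. Nupr1 overlaps Gm39087. Over the 19 alternative settings the lowest ratio was 0.15 for Gnl3, 0.32 for Tpp1 and 0.61 for both Rnpepl1 and Tra2a.

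The genes with the lowest ratios were found in a smaller percentage of mitochondria-rich cells, and their highest cells were lower there too. Neither point is separate support for the lower ratios. The naming rule required detection in ordinary cells, the higher side. Of all 543 lower genes, 538 were detected in a smaller percentage of mitochondria-rich cells. Mitochondria-rich cells were also fewer, which by itself tends to lower their highest value. Phb, prohibitin, a scaffold of the inner mitochondrial membrane, led the genes with the lowest ratios at −2.46. It reached 1 RPKM in 25.0% of mitochondria-rich and 58.2% of ordinary cells, with medians of 0 in mitochondria-rich cells (highest 48.7) and 3.59 in ordinary cells (highest 409). Tcta, a gene named for a translocation in T cell leukaemia, had medians of 7.00 in mitochondria-rich cells (0 to 283) and 51.2 in ordinary cells (0 to 835), with a ratio of −1.72. Dhrs7, a short-chain dehydrogenase, had medians of 0 (highest 277) in mitochondria-rich and 27.0 (highest 695) in ordinary cells at −1.92. Ak1, the cytosolic adenylate kinase, had medians of 0 in mitochondria-rich and 4.40 in ordinary cells at −1.76, and was found in 27.1% of mitochondria-rich and 58.2% of ordinary cells.

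The remaining 8 of the lowest 12 were Ifitm2, an interferon-induced membrane protein (−2.0), Akr1c12, an aldo-keto reductase (−1.97), Prom1, prominin (−1.96), Ddx47, an RNA helicase (−1.96), Kcmf1, a ubiquitin ligase (−1.94), Tspan15, a tetraspanin (−1.83), Trpc4ap (−1.78) and Apobec1, a cytidine deaminase (−1.74). Their medians in mitochondria-rich cells were 0.33 or less, and their medians in ordinary cells lay between 1.44 and 8.84. In each of the 12 genes the ratio was lower in the rounded than in the full-precision columns, except in Akr1c12, with −1.76 in rounded and −2.12 in full-precision columns. Fewer genes were detected in the rounded columns, and the part of this in the ratios was not tested. Tspan15 overlaps Mir7662 and Trpc4ap overlaps Myh7b.

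**Figure D4:**
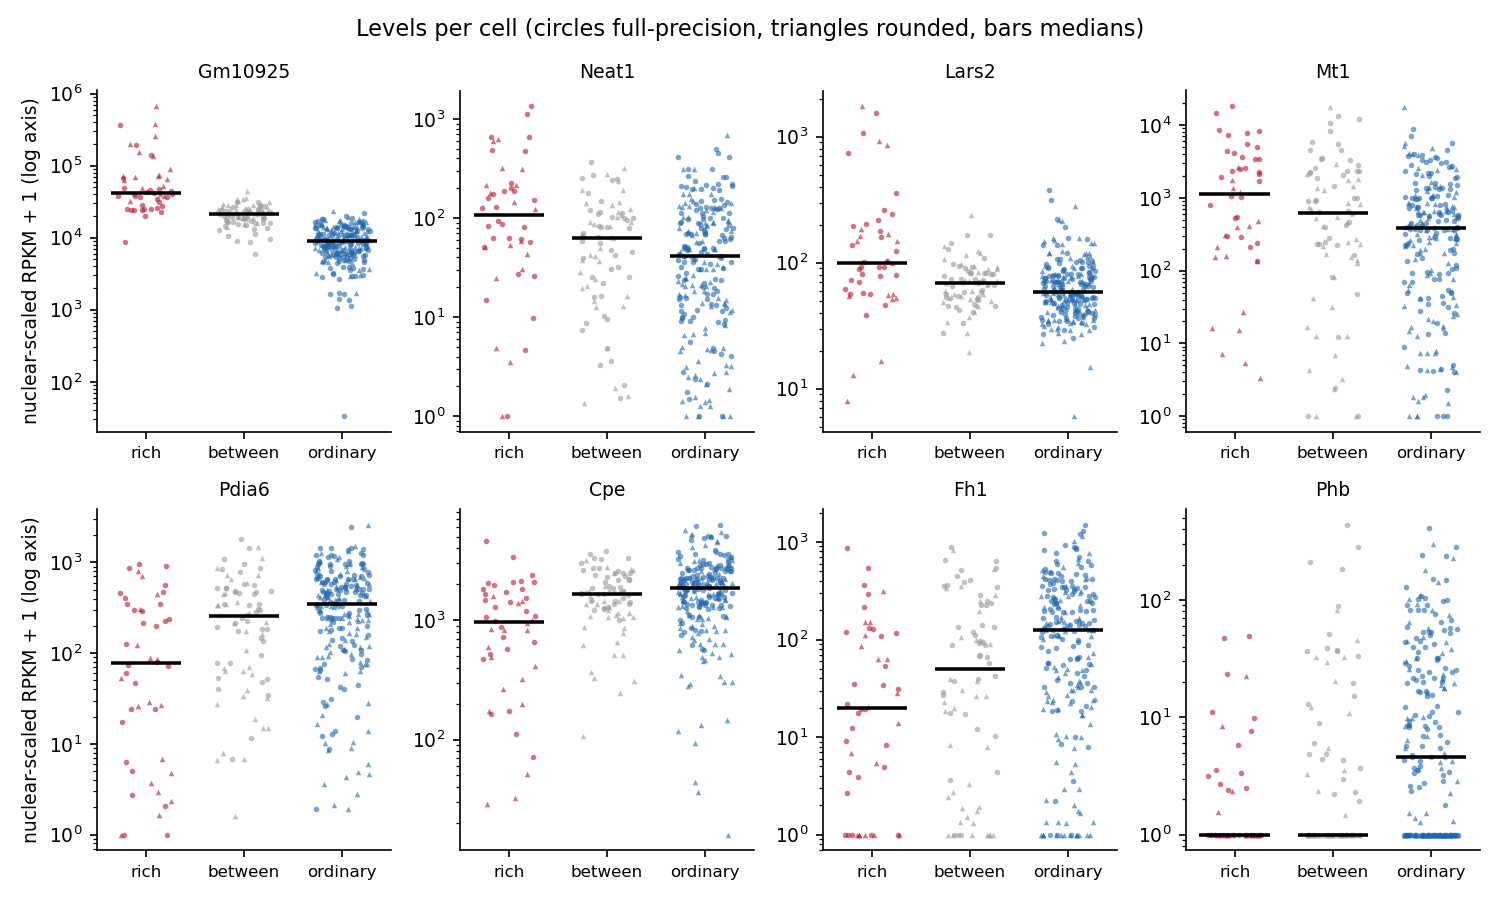
Nuclear-scaled RPKM plus 1, on a log axis, of 8 genes in every mitochondria-rich, between and ordinary insulin cell; circles are full-precision and triangles rounded columns, and bars give medians. Gm10925 has medians of 42257, 21298 and 8911 in that order, whereas Phb has a median of 0 in mitochondria-rich cells and is above it in 58.2% of ordinary cells at 1 RPKM.

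Nuclear genes of the respiratory chain stayed close to all genes while their mitochondrial partners, by the rule, were higher. List counts past 2-fold, here and below, stand beside 7.63% of all compared genes higher and 7.74% lower. Of 37 nuclear complex I genes, 24 had ratios above 0 and 13 below, none was 2-fold higher, and the median log2 ratio was 0.17 against 0.05 for all genes. Ndufa5 and Ndufa6, accessory subunits, had the highest ratios, 0.70 and 0.60. Ndufa6 had medians of 295 in mitochondria-rich and 254 in ordinary cells, which is well inside the range of either side. The complex I median was 0.41 at full precision and −0.69 in the rounded columns. It turned to −0.31 on RPKM as deposited and to −0.10 with insulin left out of the total, beside all-gene medians of −0.38 and −0.22.

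The other complexes were alike. For complexes II and III the median ratio of 14 genes was 0.10, with Uqcrc2, a core subunit of complex III, at −1.03 and none higher. For complex IV it was 0.19 over 12 genes, with Cox7c, a small structural subunit, past 2-fold at 1.10 although its medians were 64.9 in mitochondria-rich and 65.9 in ordinary cells. For ATP synthase it was 0.09 over 16 genes. Atp5k, subunit e, was the exception, with medians of 241 in mitochondria-rich cells (0 to 7458) and 136 in ordinary cells (0 to 2571) and a ratio of 1.40. On RPKM as deposited these 3 medians were −0.33, −0.21 and −0.36, and with insulin left out −0.22, −0.05 and −0.17. Cox4i1, a nuclear subunit of complex IV, averaged 406 nuclear-scaled RPKM on both sides. The mitochondrial mt-Co3 of the same complex differed 4.87-fold in RPKM as deposited, so the 2 values are on unlike scales.

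**Figure D5:**
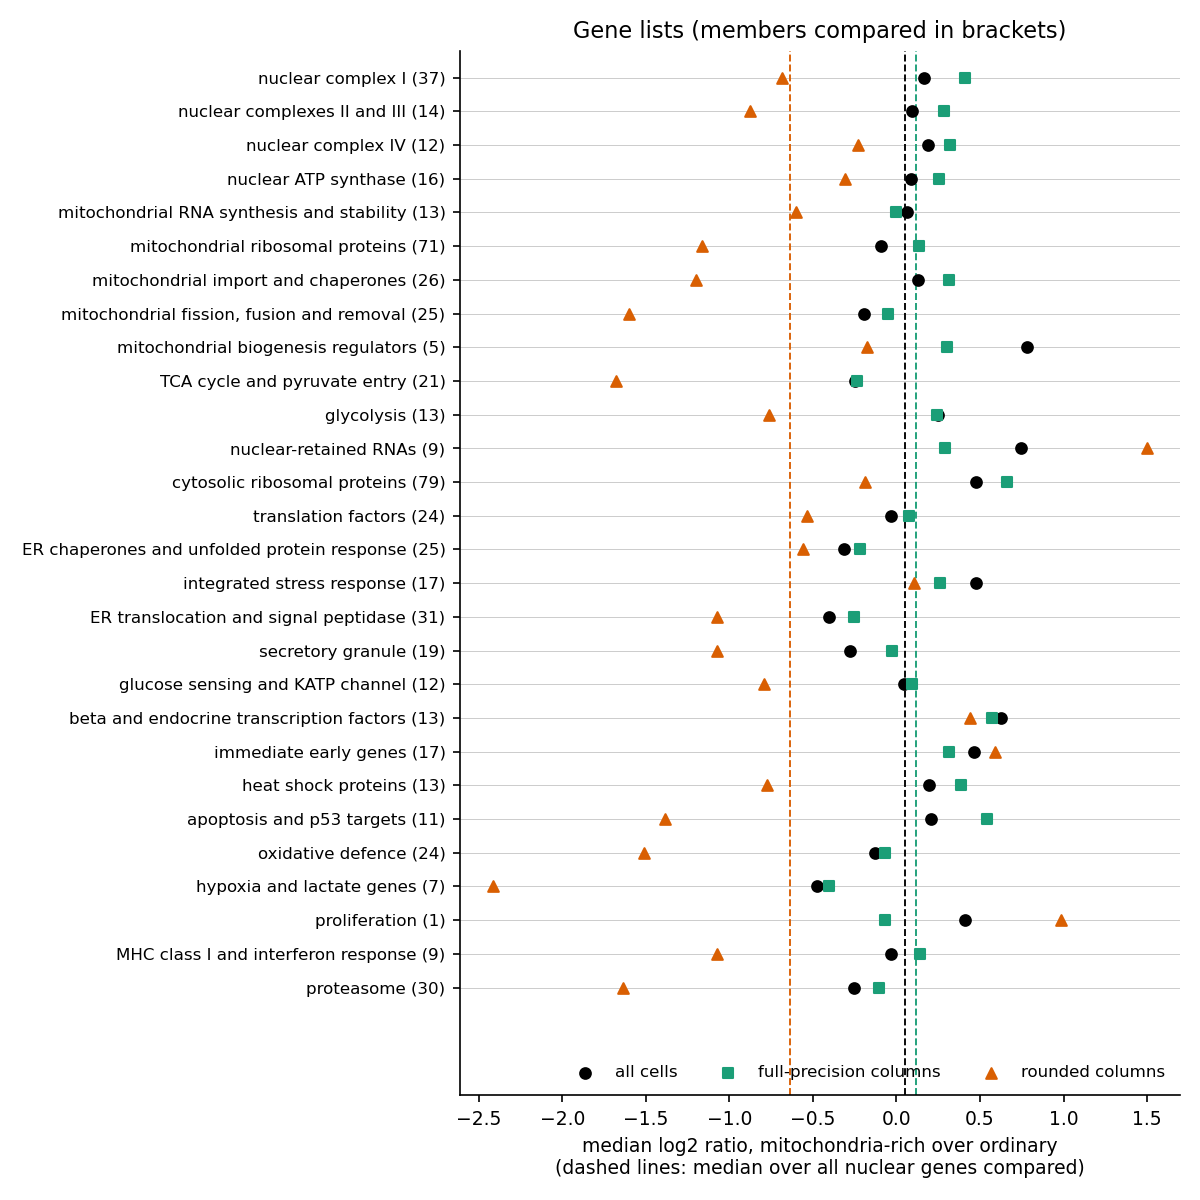
Median log2 ratio, mitochondria-rich over ordinary, of the compared members of 28 gene lists, in all cells (circles), full-precision (squares) and rounded columns (triangles); dashed lines give the median over all nuclear genes compared in each. Cytosolic ribosomal proteins sit at 0.47 to the right of the all-gene line at 0.05, and ER translocation genes at −0.40 to its left.

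Genes that make and keep mitochondria were spread over both directions, list by list. Of 31 genes of mitochondrial RNA synthesis and stability 13 passed the filter, with a median ratio of 0.07, and Ptcd2, a pentatricopeptide RNA-binding protein, was 2-fold lower at −1.91. Slirp and Lrpprc, which form a complex that stabilizes mitochondrial mRNA, had 0.60 and −0.19. Tfam, which packages and transcribes mitochondrial DNA, had medians of 0 in mitochondria-rich and 0.210 in ordinary cells and a ratio of 0.22. Among 71 mitochondrial ribosomal proteins 5 were higher and 8 lower at a median of −0.09, where 7.63% of all genes were higher and 7.74% lower. Mrpl49 was the lowest at −2.83, found in 12.5% of mitochondria-rich and 39.7% of ordinary cells. Mrpl33 was 2-fold higher by its mean (1.65), but its medians were 40.8 in mitochondria-rich and 79.8 in ordinary cells.

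Import genes and chaperones had a median of 0.13 over 26 genes. Lonp1, the matrix protease, was higher at 1.42 and Timm9, an import chaperone, lower at −1.17, with medians under 1.5 on both sides for each. Of 25 genes of fission, fusion and removal, 4 were lower and none higher: Phb, Mief2, a fission adaptor (−1.61), Oma1, an inner membrane protease (−1.20), and Fundc1, a mitophagy receptor (−1.11). Mfn2 and Opa1, which fuse outer and inner membranes, had ratios of −0.04 and 0.05. Pink1, the kinase that marks damaged mitochondria, had −0.86. The list's median was −0.19 in all cells and 0.08 without the cells above 40%. It lay below the all-gene median in all 19 alternative settings. Of 17 biogenesis regulators 5 passed the filter, 4 of them above 0, at a median of 0.78 (0.30 at full precision, −0.18 among rounded columns). This was the highest median of the 28 lists and lay above all genes in all 19 alternative settings, though on RPKM as deposited it was −0.08. The value of −0.18 is for the genes that passed the filter in all cells. With the filter applied to the rounded columns alone, the median was above 0. Of the 5, Nrf1, a transcription factor for respiratory genes, was higher at 1.25 with medians of 0.253 in mitochondria-rich and 0 in ordinary cells. Ppargc1a, the coactivator best known for driving biogenesis, had a median of 0 on both sides and was not compared.

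Enzymes that feed the chain had more ratios below than above 0. Of 21 genes of the citric acid cycle and pyruvate entry, 14 had ratios below 0, and the median was −0.25 in all cells, −0.24 at full precision and −1.68 in the rounded columns. It lay below the all-gene median in all 19 alternative settings, though it was 0.14 among cells with at least 3000 genes, where all genes were at 0.31. Fh1, fumarase, had medians of 19.0 in mitochondria-rich cells (0 to 872) and 125 in ordinary cells (0 to 1508), with ratios of −1.27 in all cells, −1.38 at full precision and −1.18 in the rounded columns. Suclg1, a subunit of succinyl-CoA ligase, had medians of 5.59 (0 to 460) in mitochondria-rich and 93.3 (0 to 1296) in ordinary cells, with a ratio of −1.32. Suclg2, its GTP-forming partner, had −1.62. Pcx, pyruvate carboxylase, was the exception at 1.64 by its mean, with −1.07 at full precision, 4.00 in the rounded columns and medians of 2.72 in mitochondria-rich and 1.84 in ordinary cells. Glycolysis genes had a median of 0.25 over 13 genes, but −0.09 on RPKM as deposited. Pfkl and Eno2 were 2-fold higher with medians of 0.22 or less, and Aldoa, the aldolase with the highest level, had medians of 269 in mitochondria-rich and 399 in ordinary cells.

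Genes for protein entry into the endoplasmic reticulum, where insulin is made and folded, lay below all genes. Of 31 genes of ER translocation and signal peptidase, 28 had ratios below 0, at a median of −0.40 (−0.25 at full precision, −1.07 among rounded columns), with 23 below 0 in both sets, as were 2243 of all 7012 genes. Srprb, the beta subunit of the signal recognition particle receptor, was past 2-fold at −1.48, with medians of 2.34 in mitochondria-rich cells (0 to 211) and 16.0 in ordinary cells (0 to 638). Sec61a1, the translocation pore, had medians of 55.6 (0 to 912) in mitochondria-rich cells and 270.3 (0.200 to 1773) in ordinary cells, with a ratio of −0.82. The list lay below all genes in all 19 alternative settings.

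Of the ER chaperones 19 of 25 genes were below 0, at a median of −0.31. Pdia6, a disulphide isomerase, had medians of 76.0 in mitochondria-rich cells (0 to 959), and 350.2 in ordinary cells (0.898 to 2614), with ratios of −1.10 in all cells, −1.03 at full precision and −1.35 in the rounded columns. Derl1 and Derl2, which export misfolded proteins, were lower at −1.04 and −1.01. Pdia3 stood just short at −0.99. The main luminal chaperones moved less. Hspa5, which binds unfolded chains, had medians of 672 in mitochondria-rich cells (10.9 to 2821) and 773 in ordinary cells (11.3 to 5409), with a ratio of −0.21. Hsp90b1 had −0.34 and Calr 0.00. The list was below all genes in 18 of the 19 settings; the exception was the rounded columns, where it was 0.024 above them.

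The granule genes of the insulin pathway were lower in more members than not, with 15 of 19 ratios below 0 and a median of −0.28. It was −0.02 at full precision and −1.07 in the rounded columns, where all genes were at 0.12 and −0.64. The list lay below all genes in all 19 alternative settings. Cpe, the carboxypeptidase that trims proinsulin, had medians of 958 in mitochondria-rich cells (28.0 to 4601) and 1842 in ordinary cells (15.0 to 6327), with a ratio of −0.84. Pcsk1, the convertase that cuts it first, had medians of 52.4 (0 to 689) in mitochondria-rich and 161 (0 to 1097) in ordinary cells at −0.98. Nucb2, the calcium-binding precursor of nesfatin, was past 2-fold at −1.04. Chga, a granule matrix protein, had medians of 1735 in mitochondria-rich and 1559 in ordinary cells, at 0.05. Pcsk1n, an inhibitor of Pcsk1, went the other way at 1.09, with medians of 30.3 (0 to 496) in mitochondria-rich and 12.0 (0 to 290) in ordinary cells.

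Glucose sensing genes had a median of 0.05 over 12 genes, as all genes did. Slc2a2, the glucose transporter GLUT2 and a beta cell marker, had medians of 26.6 in mitochondria-rich cells (0 to 1045) and 157 in ordinary cells (0 to 2231), at −0.72. Abcc8 and Kcnj11, the subunits of the ATP-gated potassium channel, had 0.01 and 0.05. Gjd2, the gap junction protein that couples beta cells, was higher at 1.11, but its medians were 5.94 in mitochondria-rich and 7.35 in ordinary cells.

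Cytosolic ribosomal proteins lay above all genes. Of 79 genes, 70 had ratios above 0, at a median of 0.47, where 3705 of all 7012 genes were above 0. Past 2-fold were 4, a smaller share than the 7.63% of all genes: Rps12 (1.45), Rpl17 (1.12), Rps21 (1.10) and Rpsa (1.05). The summed level of the 79 genes had a median of 30415 in mitochondria-rich cells (2456 to 174647) and 22136 in ordinary cells (11860 to 109415). At full precision the median sums were 38374 in mitochondria-rich and 23611 in ordinary cells, and among rounded columns 21634 in mitochondria-rich and 20284 in ordinary cells. The list's median ratio was 0.66 at full precision, but −0.19 in the rounded columns, where all genes were at −0.64. It was above all genes in all 19 settings, at 0.05 on RPKM as deposited and 0.15 with insulin left out. Translation factors, by contrast, had 12 of 24 ratios above 0 and a median of −0.03.

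RNAs that stay in the nucleus also lay above all genes. All 9 that passed the filter, of 13, had ratios above 0, at a median of 0.75, and 3 of the 9 were above 0 in both column sets, as were 1424 of the 7012 genes compared. Neat1, the scaffold of paraspeckles, had medians of 108 in mitochondria-rich cells (0 to 1353) and 40.0 in ordinary cells (0 to 688), with ratios of 1.50 in all cells, 1.45 at full precision and 1.50 in the rounded columns. Malat1, an RNA of nuclear speckles, had medians of 2951 (61.3 to 12206) in mitochondria-rich and 2131 (9.11 to 12113) in ordinary cells, at 0.75. Meg3, an imprinted RNA, had 26.9 in mitochondria-rich and 16.4 in ordinary cells at 0.95. Snhg8 and Snhg11 were past 2-fold at 1.60 and 1.20, yet Snhg8 had medians of 0 in mitochondria-rich and 7.71 in ordinary cells, and both changed sign between the sets. The list's median was 0.15 once the highest cell of each side was left out.

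Stress and immediate early genes stood higher in means than in medians. Integrated stress response genes had 12 of 17 ratios above 0 at a median of 0.47, with Nupr1, Atf5, Atf3 and Chac1 past 2-fold. Atf5, a stress transcription factor, had medians of 15.9 in mitochondria-rich cells (0 to 288) and 5.30 in ordinary cells (0 to 322), with a ratio of 1.42. Atf4, the response's central factor, had 117 in mitochondria-rich and 191 in ordinary cells at 0.07. Ddit3, its pro-apoptotic target, had 18.5 in mitochondria-rich and 7.84 in ordinary cells at 0.40. Immediate early genes had 11 of 17 above 0 at 0.46, and Arc, Atf3, Junb, Ier2 and Dusp1 past 2-fold. Junb had medians of 18.1 in mitochondria-rich and 9.53 in ordinary cells at 1.27, while Fos, with 426 in mitochondria-rich and 471 in ordinary cells, was at −0.02. Egr1, with 388 in mitochondria-rich and 317 in ordinary cells, was at 0.19. Between medians of cells the stress list was at −0.01 and the early list within 0.01 of 0. On RPKM as deposited they were at 0.02 and −0.01. Both lay above all genes in all 19 alternative settings, by at least 0.004 for the stress list and 0.068 for the early list.

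Genes of oxidative defence split. The metallothioneins Mt1 and Mt2, which bind zinc and copper, were higher. Mt1 had medians of 1130 in mitochondria-rich cells (2.33 to 18310), and 385 in ordinary cells (0 to 17841), with a ratio of 1.43, and Mt2 232 (0 to 6774) in mitochondria-rich and 42.3 (0 to 5294) in ordinary cells at 1.66. At full precision the ratios were 1.93 and 2.00, but they turned round to −0.79 and −0.84 among rounded columns. Gpx3, a secreted glutathione peroxidase, and Prdx4, the peroxiredoxin of the ER, were lower at −1.64 and −1.52. Prdx5, a mitochondrial peroxiredoxin, had medians of 4.27 in mitochondria-rich and 54.7 in ordinary cells at −0.94. The list's median was −0.13.

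Beta and endocrine transcription factors had 10 of 13 ratios above 0 at a median of 0.63. It was 0.57 at full precision, 0.44 in the rounded columns and −0.22 between medians of cells. The list lay above all genes in all 19 alternative settings, by 0.058 at the least. Nkx6-1, a beta cell factor and marker, had medians of 8.68 in mitochondria-rich cells (0 to 358) and 6.41 in ordinary cells (0 to 210), at 0.98. Nkx2-2, another islet factor, had 12.0 in mitochondria-rich and 9.59 in ordinary cells at 0.86. Pdx1 had medians of 0 in mitochondria-rich and 4.74 in ordinary cells at −0.38. Rfx6 was past 2-fold at 1.18, with medians of 2.44 in mitochondria-rich and 5.47 in ordinary cells.

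Heat shock genes had a median of 0.19 over 13, with Bag3 and Hsph1, co-chaperones of Hsp70, past 2-fold at 1.37 and 1.28. Of 11 compared apoptosis and p53 targets, Cdkn1a, a cell cycle inhibitor, and Gadd45a were higher at 1.43 and 1.29 and Gadd45g lower at −1.03, while Bax, a pore-forming killer protein, was at 0.13. Proteasome genes had 22 of 30 below 0 at a median of −0.25, below all genes in all 19 settings and about as far as the citric acid cycle list, with Psmd13 and Psmd14 2-fold lower and Psmc5 2-fold higher. Only 7 of 22 hypoxia genes were compared, at −0.47, with Vegfa, the endothelial growth factor, higher at 1.10 (medians of 36.2 in mitochondria-rich and 21.5 in ordinary cells). None of 9 antigen presentation and interferon genes passed 2-fold, and of 21 proliferation genes only Pcna was compared, at 0.41. On RPKM as deposited the medians of 4 of the 28 lists were above 0, those of ribosomal proteins, nuclear-retained RNAs, beta transcription factors and the integrated stress response.

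The 80 insulin cells between the limits were set against the same ordinary cells, so the comparisons share them. Of 7004 genes, 168 (2.4%) were at least 2-fold higher and 117 (1.67%) lower than in ordinary cells, 4.07% either way. Gm10925 and Gm10222 had ratios of 1.20 and 1.26 in them. The list medians were 0.16 for complex I, 0.32 for cytosolic ribosomal proteins, 0.43 for nuclear-retained RNAs, −0.05 for ER translocation, −0.09 for ER chaperones and −0.08 for the citric acid cycle, where all genes were at 0.08. Other lists had the opposite sign to that in mitochondria-rich cells. Among them were biogenesis regulators (−0.10), beta transcription factors (−0.03) and mitochondrial RNA synthesis (−0.26). Hypoxia genes had 0.29 and genes of fission, fusion and removal 0.11. Mt1 and Mt2 had 0.91 and 1.14. Lars2 had 0.07, Fh1 −0.53, Pdia6 −0.35, Phb −0.24 and Cpe −0.22.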

How the data were processed

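The authors deposited 1 table of RPKM values for 44448 Entrez gene IDs in 622 cells. C1 capture, SMARTer Ultra Low cDNA and Nextera XT libraries, per the labels' protocols, keep no strand. CASAVA 1.8.2, FastQC and GRCm38 (mm10) appear in the submitters' processing notes; aligner, counter and annotation: not given in the sources used here. RefSeq names matched 39725 IDs. Whole reads per gene were recovered from steps between RPKM values, within 0.05 of a whole number for 100.0% of values under 100 reads at full precision and 99.97% of those in rounded columns. They served for depth, for thinning and for the setting with M taken from reads. Nuclear genes were rescaled to 1000000 per cell, and ratios are log2 of means plus 1, called past 2-fold. No animal is named, so no test was run, and doublets were not called. The genes named first had the 12 highest or lowest ratios among those with a mean of 20 or more on the higher side, 1 RPKM in 50% of its cells and the same sign, at 0.5 or more, in both column sets; within lists, members past 2-fold, those with large ratios and those that define the list's role were named. Some list members are counted but not reported here by name. Mitochondrial copies were found with BLAST+ 2.17.0 at 90% identity over 80 bases: 17 nuclear genes matched, 2 of them in the table. The members and lists were chosen with earlier results of these data known. Of 19 alternative settings, leaving out the copies and keeping M under 40% were added after seeing the data, as were the genes described beyond the naming rule. Scripts ran in Python 3.11.15 with numpy 2.4.6 and pandas 2.3.3.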

Additional observations from a re-analysis of the deposited data

How the results depend on the processing

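Cells are the only units, so ranges show spread over cells of 1 sample, and single-cell values below about 1 RPKM rest on few reads. No paired analysis was possible because the labels give no replicate numbers that groups share and the comparisons come from no test. The difference of −982.5 detected nuclear genes was −2420 with M of at least 25%. With M taken from reads, which gave 22 mitochondria-rich and 287 ordinary cells, it was −2945. It was −171.5 among cells with at least 3000 genes, −496 with M from 20% to 40%, −547 at 100000 nuclear reads, −558.5 at full precision and −83 after matching on detected genes, which sets it close to 0 by construction. The 535 higher and 543 lower genes became 168 and 1093 on RPKM as deposited, 196 and 108 with a pseudocount of 10, 67 and 1816 between medians of cells, 157 and 1173 without the highest cell of each side, 1467 and 1956 with no filter, 356 and 212 at a mean of at least 20, and 943 and 353 among cells with at least 3000 genes. Higher genes numbered 905 when cells were matched on detected genes, and lower ones 1099 with insulin left out of the total, 2088 in rounded columns, 1549 with both column sets weighted equally, 1522 with M of at least 25% and 2847 with M from reads. The ER chaperone median of −0.31 was −0.79 as deposited, −0.55 in rounded columns, −1.21 between medians, −0.76 with M of at least 25% and −1.32 with M from reads. The ribosomal protein median of 0.47 was −0.19 in rounded columns, and the complex I median of 0.17 was −0.69 there and −0.82 between medians. Nupr1 turned to −0.011 between medians. Except where the settings themselves change the cells or genes compared, the cause was not tested. The median of nuclear-retained RNAs stayed above 0 in all 19 settings, and the other 23 named genes kept their sign in each setting in which they could be computed.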

Other observations

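Of the 622 cells, 29 had fewer than 1000 genes at 1 RPKM and entered no comparison. Their median M was 77.9% (9.74% to 81.8%), above the highest of the 48 mitochondria-rich insulin cells, 77.5%, with a median of 1785448 reads, of which 149208 were nuclear. Thinned to 250000 reads, with 1 cell left out, they held a median of 716 nuclear genes (262 to 1502). Ins1 and Ins2 took a median of 0.300% of all their RPKM, and 3.07% of the nuclear part. The mitochondrial rRNAs took a median of 10.0% of RPKM in these cells.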
